A study of Rattus norvegicus with 6 samples.

Results

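JAK kinases, the transcription factors STAT3, STAT5a and STAT5b, and the SOCS and CISH proteins form a signalling loop that cytokines and hormones switch on. A ligand brings together receptor chains that carry JAK kinases, the kinases phosphorylate STAT proteins, and the STAT proteins move to the nucleus and raise transcription of target genes. SOCS proteins and CISH are among those targets, and they bind the receptor or the kinase and damp the signal. In injured peripheral nerve this route is known for the interleukin-6 family, whose shared receptor chain gp130 signals mainly through JAK1, JAK2 and STAT3 in Schwann cells, neurons and immune cells. The 10 genes described here (Jak1, Jak2, Jak3, Stat3, Stat5a, Stat5b, Socs1, Socs2, Socs3 and Cish) were taken by symbol from a table of 29884 rat genes. All 10 had a row and all 10 passed the filter on low counts that kept 15464 genes.

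The tissue was sciatic nerve from wild type rats given the CCI model, a chronic constriction injury. Loose ligatures squeeze the nerve and leave lasting damage and neuropathic pain. In the conduit group (3 libraries) the injured nerve had been treated with PLLA-PCL-RVC, a polymer nerve conduit that the design text describes as piezoelectric and as carrying ropivacaine, a local anaesthetic. The untreated group (3 libraries) had the injury alone. No uninjured nerve and no conduit without drug is among the samples, so conduit, polymer and drug cannot be told apart, and the age, strain, sex and time after injury are not given in the labels. Nothing in the labels ties a library to an animal of its own, and the spread behind the p-values may thus be technical in part.

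Libraries held 38401951 to 42225086 counts, and 8 Schwann cell markers were present in all 6. Together they took 11.2 to 13.8% of all counts in conduit libraries, against 1.18 to 2.48% in untreated libraries. Levels are therefore given as CPM, counts relative to library size, scaled by TMM, a method that sets libraries level on the bulk of their genes. With library totals alone the log2 fold changes of the same genes moved by a median of -0.39. Summed markers of skeletal muscle were at most 8.80 CPM in conduit libraries, and in untreated libraries they reached 10910 CPM in replicate 1 beside 77.8 and 8.86 CPM in replicates 2 and 3. Summed adipocyte markers were highest in conduit replicate 3, at 1419 CPM, while conduit replicates 1 and 2 had 296 and 363 CPM and untreated libraries 333 to 734 CPM. The labels give 5 batch numbers, 3 for conduit and 2 for untreated libraries. None holds both groups, so batch and treatment cannot be told apart.

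Between conduit and untreated nerves, 4 of the 10 genes fell, 0 rose and 6 did not pass (edgeR quasi-likelihood test, Benjamini-Hochberg adjusted p under 0.05 over all genes tested). Over all 15464 genes, 50.2% were called, 26.2% lower and 24.0% higher. The 4 that fell were Jak3, Socs3, Jak1 and Stat3, 1 kinase of immune cells, 1 feedback inhibitor, 1 kinase of most cell types and the factor that gp130 cytokines activate. Of these, 2 fell at least 2-fold, Jak3 and Socs3, against 15.1% of all genes tested. The median log2 fold change of the 10 genes was -0.62, and that of all genes tested was -0.04. In 5 genes, these 4 and Socs1, every conduit library lay below every untreated one, whereas 32.2% of all genes tested did not overlap and were lower in conduit nerves, and 61.7% did not overlap in either direction. Scaled by library totals, 9 of the 10 were called lower (all but Cish), beside 6554 genes called lower and 2291 higher overall in that fit and 4049 lower and 3711 higher with TMM.

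**Figure D1:**
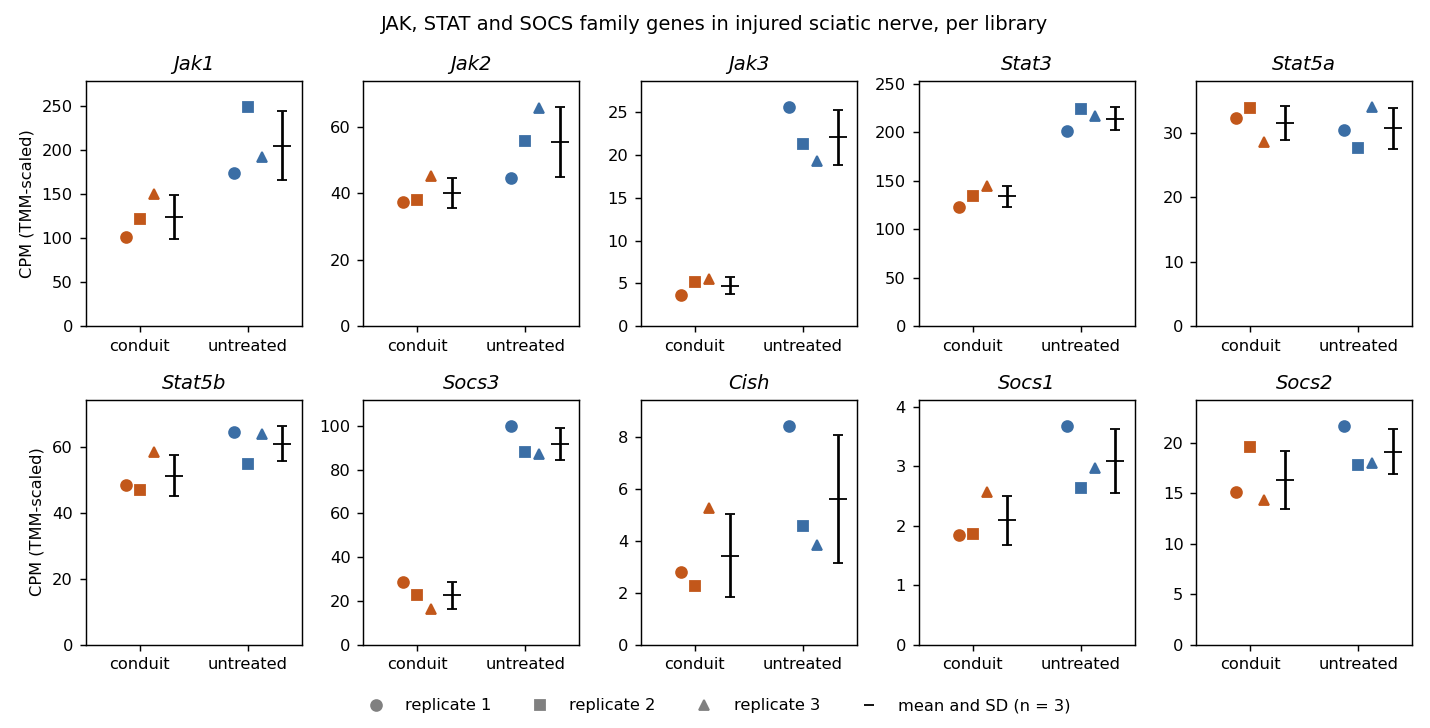
TMM-scaled CPM (vertical axes, from 0) of each of the 10 genes, with conduit libraries in orange on the left and untreated libraries in blue on the right of each panel; symbols stand for replicate numbers, and the bar is the mean with its SD (n = 3). Jak3 and Socs3 sit well apart between the groups, Jak1, Stat3 and Socs1 are separated by smaller gaps, and the other 5 genes overlap.

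Of the kinases, Jak3 differed by the largest factor. JAK3 works with the common gamma chain of interleukin receptors and is known mainly from lymphocytes and other blood cells. Jak3 was at 3.57, 5.12 and 5.45 CPM in conduit libraries, against 25.6, 21.3 and 19.4 CPM in untreated libraries. All 3 conduit libraries lay below all 3 untreated ones. The difference was 4.68-fold (log2 fold change -2.23 ± 0.21 SE, edgeR adjusted p = 0.000214).

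Jak1, the kinase bound by gp130, by interferon receptors and by the partners of the common gamma chain, was at 101, 122 and 151 CPM in conduit libraries and at 174, 249 and 192 CPM in untreated libraries. The groups did not overlap, and untreated replicate 2 stood above the rest. The log2 fold change was -0.72 ± 0.20 SE (edgeR adjusted p = 0.0204). The call was lost without conduit replicate 1 (-0.57, edgeR adjusted p = 0.0811) or conduit replicate 2 (-0.69, 0.0765). In the RefSeq table of the GRCr8 assembly Jak1 overlaps Raver2 and LOC120103217, Socs1 overlaps LOC134480746 and Socs2 overlaps LOC134479868. Whether the counting used strand is not given in the sources used here, so reads of these overlaps may not have been told apart.

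Jak2, the kinase of the growth hormone, erythropoietin and leptin receptors and a partner of gp130, was at 37.2, 37.8 and 45.2 CPM in conduit libraries, against 44.7, 55.5 and 65.7 CPM in untreated libraries. Conduit replicate 3 lay just above untreated replicate 1, so the groups overlapped. Its log2 fold change was -0.47 ± 0.17 SE (edgeR adjusted p = 0.0524). The value ran from -0.60 to -0.32 with single libraries left out. It was -0.32 without untreated replicate 3 (edgeR adjusted p = 0.157) and -0.40 without conduit replicate 1 or 2 (edgeR adjusted p = 0.163 and 0.169). It passed without untreated replicate 1, the library with the muscle transcripts (-0.60, edgeR adjusted p = 0.0185), and when replicate numbers were fitted as a block (-0.45, edgeR adjusted p = 0.0317).

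Immune cell markers moved with these values. All 10 macrophage markers fell, with summed levels of 428 to 761 CPM in conduit and 2910 to 3521 CPM in untreated libraries, and 7 of 8 T cell markers fell, with sums of 40.1 to 74.3 CPM in conduit and 188 to 276 CPM in untreated libraries. Of all genes tested 26.2% were lower. Most of the T cell sum was Cd4 in conduit libraries and Cd4 and Cd8a in untreated libraries. The sum is therefore not a measure of T cell content. Cd4 was at 34.3 to 70.2 CPM in conduit and 112 to 225 CPM in untreated libraries. Cd3d, Cd3e and Cd3g stayed at or below 2.26 CPM in conduit and 4.57 CPM in untreated libraries, and Cd3g did not pass. No macrophage or T cell marker was at 0 in any library. Ptprc, the CD45 phosphatase of blood-derived cells, was at 6.10 to 12.9 CPM in conduit and 52.0 to 103 CPM in untreated libraries. The part of these cells in the difference of Jak3, or of any other gene here, was not tested. In bulk nerve, fewer cells of a type and less RNA per cell cannot be told apart.

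Among the STAT genes only Stat3 passed with TMM scaling, while all 3 passed with library totals. STAT3 carries the signal of interleukin-6 family cytokines and is known for its part in the injury response of Schwann cells and neurons. Stat3 was at 123, 134 and 145 CPM in conduit libraries, against 201, 225 and 217 CPM in untreated libraries. The 2 groups were each tight and did not overlap. The log2 fold change was -0.68 ± 0.13 SE, a 1.60-fold difference (edgeR adjusted p = 0.00379), and it stayed called in all 15 alternative fits. With library totals it was -1.06.

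Stat5a and Stat5b encode near-identical factors that answer growth hormone, prolactin and many interleukins. Neither passed with TMM scaling. Stat5b was at 48.5, 46.9 and 58.2 CPM in conduit libraries, against 64.3, 54.7 and 63.8 CPM in untreated libraries, and conduit replicate 3 overlapped untreated replicate 2. Its log2 fold change was -0.25 ± 0.13 SE (95% interval -0.56 to 0.06, edgeR adjusted p = 0.158).

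Stat5a was at 32.3, 33.8 and 28.6 CPM in conduit libraries, against 30.5, 27.6 and 34.0 CPM in untreated libraries. The groups lay on top of each other, with a log2 fold change of 0.04 ± 0.13 SE (95% interval -0.27 to 0.34, edgeR adjusted p = 0.822). With library totals the sign turned (-0.35, edgeR adjusted p = 0.0412), a value close to the median of all genes in that fit, -0.43. In the RefSeq table Stat5b, Stat5a and Stat3 are consecutive genes of chromosome 10. The sources used here do not say how reads that match both STAT5 genes were counted, so the split between the 2 is uncertain.

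Of the feedback inhibitors only Socs3 passed with TMM scaling (Socs1, Socs2 and Socs3 with library totals), and its fall was the largest after that of Jak3. SOCS3 binds gp130 and the attached JAK and is the main brake on interleukin-6 family signalling. Socs3 was at 28.5, 22.8 and 16.2 CPM in conduit libraries, against 100.02, 88.1 and 87.1 CPM in untreated libraries. The highest conduit library was well below the lowest untreated one, a 4.08-fold difference (log2 fold change -2.03 ± 0.21 SE, edgeR adjusted p = 0.000307). The value ran from -2.43 to -1.80 over the 15 alternative fits, and each of them called it lower.

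SOCS1, which blocks JAK activity directly and is best known as the brake on interferon-gamma, had low levels. Socs1 was at 1.84, 1.87 and 2.57 CPM in conduit libraries, against 3.68, 2.63 and 2.97 CPM in untreated libraries. Conduit replicate 3 was just under untreated replicate 2, so the groups did not overlap, but the difference did not pass (log2 fold change -0.56 ± 0.29 SE, 95% interval -1.23 to 0.11, edgeR adjusted p = 0.140).

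SOCS2 and CISH are known as the brakes on growth hormone and STAT5 signalling. Socs2 was at 15.1, 19.6 and 14.3 CPM in conduit libraries, against 21.7, 17.8 and 17.9 CPM in untreated libraries. The groups overlapped through conduit replicate 2 (log2 fold change -0.23 ± 0.17 SE, 95% interval -0.63 to 0.17, edgeR adjusted p = 0.298).

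Cish was at 2.78, 2.23 and 5.24 CPM in conduit libraries, against 8.42, 4.56 and 3.84 CPM in untreated libraries. It had the widest spread of the 10 genes relative to its level, with conduit replicate 3 above 2 of the untreated libraries and untreated replicate 1 above all others. The log2 fold change of -0.71 ± 0.43 SE did not pass (95% interval -1.72 to 0.29, edgeR adjusted p = 0.202). It was -1.12 without conduit replicate 3, the library with the most adipocyte transcripts, and -0.30 without untreated replicate 1. The part of those tissues in these values was not tested.

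Cish is known as a direct STAT5 target, and its promoter is shown because of 4 closely spaced STAT-type motifs. The motif searched was TTCNNNGAA, the core of STAT binding sites, which reads the same on both strands. RefSeq promoter sequences (GRCr8) were at hand for 7 of the 10 genes, and the 250 bases before the start were read. The Cish window holds 4 matches, centred 237, 226, 132 and 115 bases before the start, and the Socs1 window, shown beside it, holds 1 match. Of 33469 such windows of all genes 7.67% hold at least 1 match. The 2 windows that hold 4 are that of Cish itself and that of LOC120095689. Matches are in capitals, the window of Cish is chr8:116850719-116850968 and that of Socs1 chr10:5389324-5389573, both on the plus strand.
Cish: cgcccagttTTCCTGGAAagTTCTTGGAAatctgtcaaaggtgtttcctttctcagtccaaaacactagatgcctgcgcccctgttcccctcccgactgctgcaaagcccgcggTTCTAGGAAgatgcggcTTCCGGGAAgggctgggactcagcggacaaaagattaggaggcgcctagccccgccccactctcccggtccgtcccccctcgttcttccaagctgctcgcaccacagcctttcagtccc
Socs1: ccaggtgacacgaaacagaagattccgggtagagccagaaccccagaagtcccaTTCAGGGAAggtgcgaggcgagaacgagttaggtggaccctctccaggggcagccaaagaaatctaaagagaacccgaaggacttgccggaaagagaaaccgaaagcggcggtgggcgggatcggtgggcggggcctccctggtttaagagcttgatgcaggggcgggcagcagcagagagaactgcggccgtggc

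The windows of Socs3, Stat3, Stat5a, Stat5b and Jak2 hold no match. Those of Socs3, Stat3 and Stat5b lie inside the annotated span of their genes, not at its outermost start. A match is a run of letters and not a measured site. No promoter sequence was at hand for Jak1, Jak3 and Socs2. The part of these motifs in the fold changes was not tested.

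**Figure D2:**
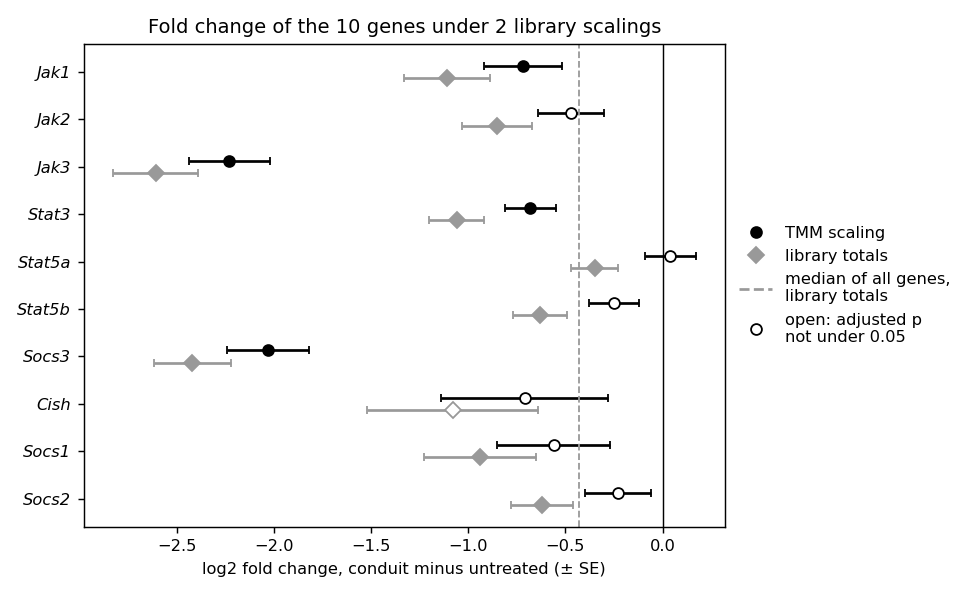
Log2 fold change, conduit minus untreated, with its standard error (horizontal axis) for the 10 genes, under TMM scaling (black) and library totals (grey); open symbols did not reach an adjusted p under 0.05, and the dashed line is the median of all genes with library totals, at -0.43. Jak3 and Socs3 lie beyond -2 under both scalings, and Stat5a lies near 0 with TMM and near the dashed line with library totals.

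Levels of different genes were compared as FPKM, the deposited counts divided by gene length and library total. FPKM is scaled by library totals, so its group differences include the shift given above. In conduit nerves the order was Stat3 (26.4 ± 2.86 FPKM, SD, n = 3), Jak1, Jak2, Stat5a, Stat5b, Socs3, Socs2, Cish, Socs1 and Jak3 (0.916 ± 0.207 FPKM). In untreated nerves it was Stat3 (55.2 ± 4.62 FPKM), Jak1, Socs3, Jak2, Stat5b, Stat5a, Jak3, Socs2, Cish and Socs1 (2.96 ± 0.435 FPKM). Socs3 thus stood at 6.86 ± 1.77 FPKM in conduit nerves, within the range of Stat5b, and at 36.7 ± 2.27 FPKM in untreated nerves, within the range of Jak1. Jak3 was the lowest of the 10 in conduit nerves and above Socs2, Cish and Socs1 in untreated nerves. Ranges of neighbours overlapped for Stat3 and Jak1 and for Stat5a and Stat5b in both groups, and among Socs2, Cish and Socs1 in both groups.

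A gene's share within its own group of genes does not depend on how libraries are scaled. Socs3 made up 63.5, 55.9 and 42.9% of the summed FPKM of Socs1, Socs2, Socs3 and Cish in conduit libraries, against 75.3, 79.7 and 79.7% in untreated libraries. Socs2 made up 17.2, 24.7 and 19.5% in conduit libraries and 8.37, 8.24 and 8.42% in untreated libraries. The groups did not overlap in either share. Shares within a group of genes add up to a whole, so they depend on each other. The level of Socs2 itself did not pass (log2 fold change -0.23, edgeR adjusted p = 0.298). Cish made up 9.49, 8.42 and 21.3% in conduit libraries and 9.73, 6.34 and 5.40% in untreated libraries, so its groups overlapped, and the difference of 5.93 percentage points was 1.80 without conduit replicate 3. Jak3 made up 2.81, 3.50 and 3.06% of the 3 JAK genes in conduit libraries, against 11.8, 7.47 and 7.77% in untreated libraries. The share of Jak1 was 66.1 ± 2.20% in conduit and 65.5 ± 4.19% in untreated libraries (SD, n = 3 each). Stat3 made up 62.7, 64.4 and 65.8% of the 3 STAT genes in conduit libraries, against 71.1, 75.8 and 71.7% in untreated libraries.

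Ratios of feedback genes to STAT genes were added after values were seen, and they do not measure STAT activity. STAT3 is a factor that induces Socs3. Socs3 had 36.1, 26.4 and 17.3% of the FPKM of Stat3 in conduit libraries, against 77.3, 61.0 and 62.5% in untreated libraries. The groups did not overlap in this ratio, which follows from the larger fall of Socs3 than of Stat3 given above. Socs1 had 5.80 ± 0.722% of the FPKM of Stat3 in conduit and 5.43 ± 1.26% in untreated libraries (SD, n = 3 each). Cish had 9.07, 7.22 and 16.6% of the summed FPKM of Stat5a and Stat5b in conduit libraries, against 24.6, 15.2 and 10.7% in untreated libraries, and the groups overlapped. The difference of -5.86 percentage points was -1.98 without untreated replicate 1. Socs2 had 17.6 ± 3.15% of the summed FPKM of Stat5a and Stat5b in conduit and 19.2 ± 2.27% in untreated libraries (SD, n = 3 each). For the shares of Socs1, Socs2, Socs3, Stat3, Stat5a and Jak3 and the ratio of Socs3 to Stat3 the exact two-sided permutation test gave p = 0.1, the smallest that 3 against 3 libraries allow, or 0.2 adjusted over the 14 shares and ratios computed. The other 7 had exact permutation p between 0.2 and 0.9.

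**Figure D3:**
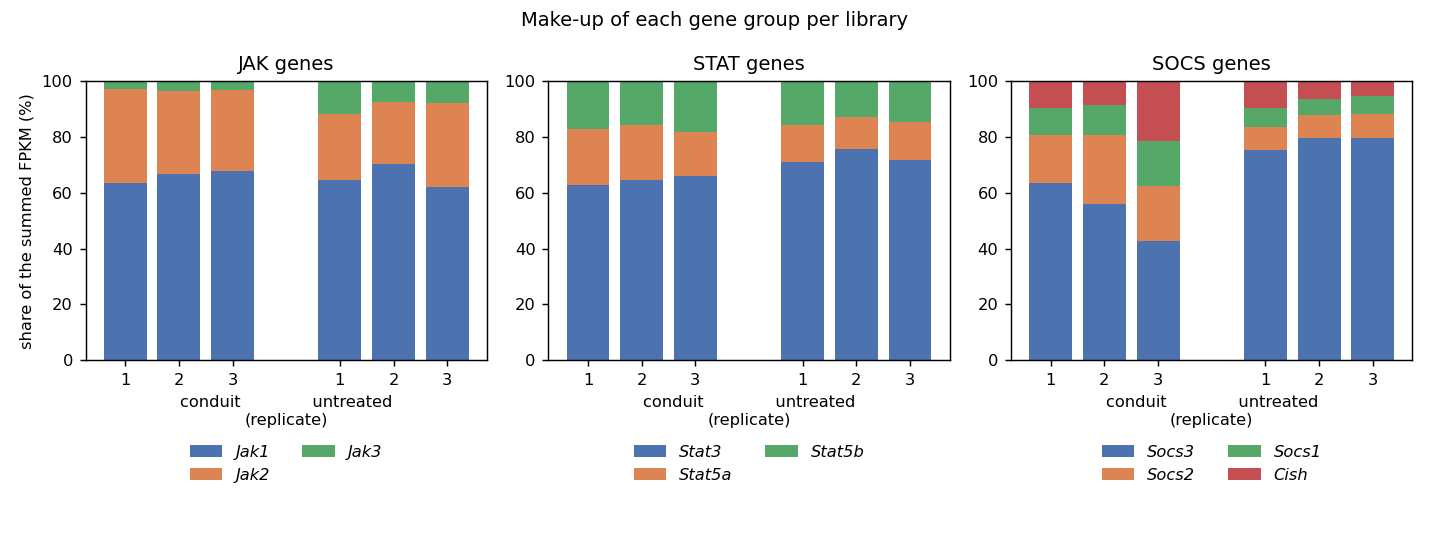
Share (%) of each gene in the summed FPKM of its group, in stacked bars for each library, conduit libraries left and untreated libraries right. Socs3 (blue, right panel) fills 42.9 to 63.5% of the bar in conduit libraries and 75.3 to 79.7% in untreated libraries, and Jak3 (green, left panel) is thinner in conduit libraries.

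The ligands that feed the pathway moved in opposite directions. Of 22 cytokine and hormone genes 14 were tested, 7 fell and 4 rose, with a median log2 fold change of -1.12. Over all genes tested 26.2% were lower and 24.0% higher. Genes of 3 gp130 ligands, Clcf1 (-6.39 ± 0.26 SE), Lif (-5.37 ± 0.28) and Il11 (-5.27 ± 0.24), fell with the smallest adjusted p of the list. The 4 that rose were Cntf, Ctf1 (1.37 ± 0.27), Il21 (2.89 ± 0.35) and Lep (4.21 ± 0.61). Cntf, ciliary neurotrophic factor of myelinating Schwann cells and itself a gp130 ligand, was at 548, 596 and 479 CPM in conduit libraries, against 133, 60.2 and 126 CPM in untreated libraries. Lep, leptin of adipocytes, is 1 of the 5 adipocyte markers. It was at 2.01, 5.26 and 8.77 CPM in conduit libraries, against 0.368, 0.303 and 0.184 CPM in untreated libraries. Its highest value was in the library with the most adipocyte transcripts. Conduit replicates 1 and 2 also had more Lep than each untreated library. Their adipocyte sums were 296 and 363 CPM, against 333 to 734 CPM in untreated libraries. Fabp4, which did not pass, was the largest part of that sum in each library. Of the 5 adipocyte markers 2 rose, Lep and Cidec, and 3 did not pass, beside 24.0% higher over all genes tested. Cidec was at 33.8, 53.5 and 229 CPM in conduit libraries, against 4.46, 10.3 and 31.8 CPM in untreated libraries. The part of adipocytes in Lep was not tested.

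The receptors also moved both ways. Of 24 receptor genes tested 12 fell and 5 rose, with a median log2 fold change of -1.01. Among all genes tested 26.2% were lower and 24.0% higher. Il6st, which encodes gp130 and was the most abundant, was at 407, 436 and 543 CPM in conduit libraries, against 736, 958 and 752 CPM in untreated libraries (log2 fold change -0.82 ± 0.18 SE, edgeR adjusted p = 0.00739). The receptors with the smallest adjusted p were Il4r (-2.31 ± 0.12), Csf2rb (-1.78 ± 0.15) and Csf3r (-4.46 ± 0.37), of interleukin-4, of GM-CSF and its relatives, and of G-CSF. Osmr, the oncostatin M receptor that pairs with gp130, was at -2.21 ± 0.24, and Il2rg, the common gamma chain that carries JAK3, at -2.04 ± 0.24, beside -2.23 for Jak3. Osmr and Il2rg were chosen for mention after their values were seen. Among the 5 that rose were Lifr (1.44 ± 0.19), Cntfr (2.72 ± 0.37), Il11ra1 (0.88 ± 0.15) and Lepr (2.13 ± 0.35). Lifr and Cntfr encode chains of the receptor for ciliary neurotrophic factor. Cntfr was at 36.2, 50.9 and 77.0 CPM in conduit libraries, against 6.45, 6.24 and 12.3 CPM in untreated libraries.

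Other JAK, STAT and SOCS genes mostly did not pass. Of 9, Tyk2 (-0.82 ± 0.14) and Socs5 (-1.22 ± 0.20) fell, Socs7 (0.47 ± 0.12) rose and 6 did not pass, with a median of -0.41. Over all genes tested 26.2% were lower and 24.0% higher, or 50.2% called. Tyk2, the fourth JAK kinase, was at 19.1, 17.2 and 21.9 CPM in conduit libraries, against 36.7, 31.8 and 34.3 CPM in untreated libraries. Socs7 did not pass with library totals (0.08, edgeR adjusted p = 0.629).

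Of 11 genes for phosphatases, PIAS proteins and adaptors that limit the pathway, 4 fell, 1 rose and 6 did not pass. Those called in either direction are near the share over all genes tested, 50.2%. By direction that share was 26.2% lower and 24.0% higher. The median of the 11 was 0.06 and turned to -0.33 with library totals. The 4 that fell were phosphatase genes, namely Ptpn6 (-2.35 ± 0.21), which encodes SHP-1 of blood cells, Ptpn2 (-1.43 ± 0.13), Ptprc (-2.99 ± 0.39) and Ptpn1 (-0.52 ± 0.13). Ptpn1 did not pass without conduit replicate 1 (-0.43, edgeR adjusted p = 0.0711) or 3 (-0.47, 0.0564). Ptpn11, which encodes SHP-2 of most cell types, was at 162 ± 16.0 CPM in conduit and 145 ± 21.6 CPM in untreated nerves (edgeR adjusted p = 0.429). Cbl, a ubiquitin ligase gene, was at 76.3 ± 8.48 CPM in conduit and 73.5 ± 7.57 CPM in untreated nerves (edgeR adjusted p = 0.761). Pias2, the gene that rose (0.34 ± 0.11, edgeR adjusted p = 0.0423), was not called in 11 of 15 alternative fits, among them those without conduit replicate 1, 2 or 3 or untreated replicate 1 or 3 (edgeR adjusted p = 0.110, 0.109, 0.0649, 0.0669 and 0.119), and was at -0.05 with library totals.

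Genes commonly given as STAT3 targets fell or did not pass. Of 15, 13 were tested, 9 fell and 0 rose, with a median of -1.15. The shares over all genes tested were 26.2% lower and 24.0% higher. Gfap, an intermediate filament gene of glia, did not pass with all libraries (0.40 ± 0.20, edgeR adjusted p = 0.125) but was called higher without untreated replicate 3 (0.62). Timp1, a metalloproteinase inhibitor, was at 106, 108 and 91.4 CPM in conduit libraries, against 469, 407 and 348 CPM in untreated libraries. Junb (-1.17 ± 0.13) and Myc (-1.63 ± 0.20), both early response transcription factors, had the next smallest adjusted p. Hif1a, 1 of the 9, did not pass without conduit replicate 1, 2 or 3 (edgeR adjusted p = 0.0767, 0.0688 and 0.0597), and was at -0.72 without untreated replicate 2, against -1.36 with all libraries. Mcl1, a survival factor and the second most abundant of the list, was at 160 ± 28.0 CPM in conduit and 171 ± 24.4 CPM in untreated nerves (edgeR adjusted p = 0.664). These genes answer many other signals, and no STAT3 activity was measured.

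Genes commonly given as STAT5 targets went both ways. Of 7, 3 rose, 3 fell and Ccnd2 did not pass, beside 24.0% higher and 26.2% lower over all genes tested. The median was -0.01, or -0.40 with library totals, where 2 rose and 3 fell. Bcl2l1, a survival gene, was at 147, 188 and 129 CPM in conduit libraries, against 73.1, 64.4 and 66.5 CPM in untreated libraries. Pim2 (1.30 ± 0.27) and Bcl6 (0.70 ± 0.15) also rose, Bcl6 not with library totals (0.32, edgeR adjusted p = 0.105). Ccnd1, cyclin D1, fell to 139 ± 18.6 CPM in conduit nerves, against 421 ± 92.4 CPM in untreated nerves. Markers of dividing cells fell beside it, with sums of 9.64 to 17.5 CPM in conduit and 191 to 256 CPM in untreated libraries, and their part was not tested. Igf1, the growth factor induced by growth hormone, was at -1.25 ± 0.39 (edgeR adjusted p = 0.0322). It did not pass without conduit replicate 1 or 2 or untreated replicate 2 or 3 (edgeR adjusted p = 0.0572, 0.0920, 0.0720 and 0.0862). Gadd45g (-0.75 ± 0.24) did not pass without conduit replicate 1 or 2 or untreated replicate 1 or 3 (edgeR adjusted p = 0.109, 0.112, 0.0894 and 0.101).

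**Figure D4:**
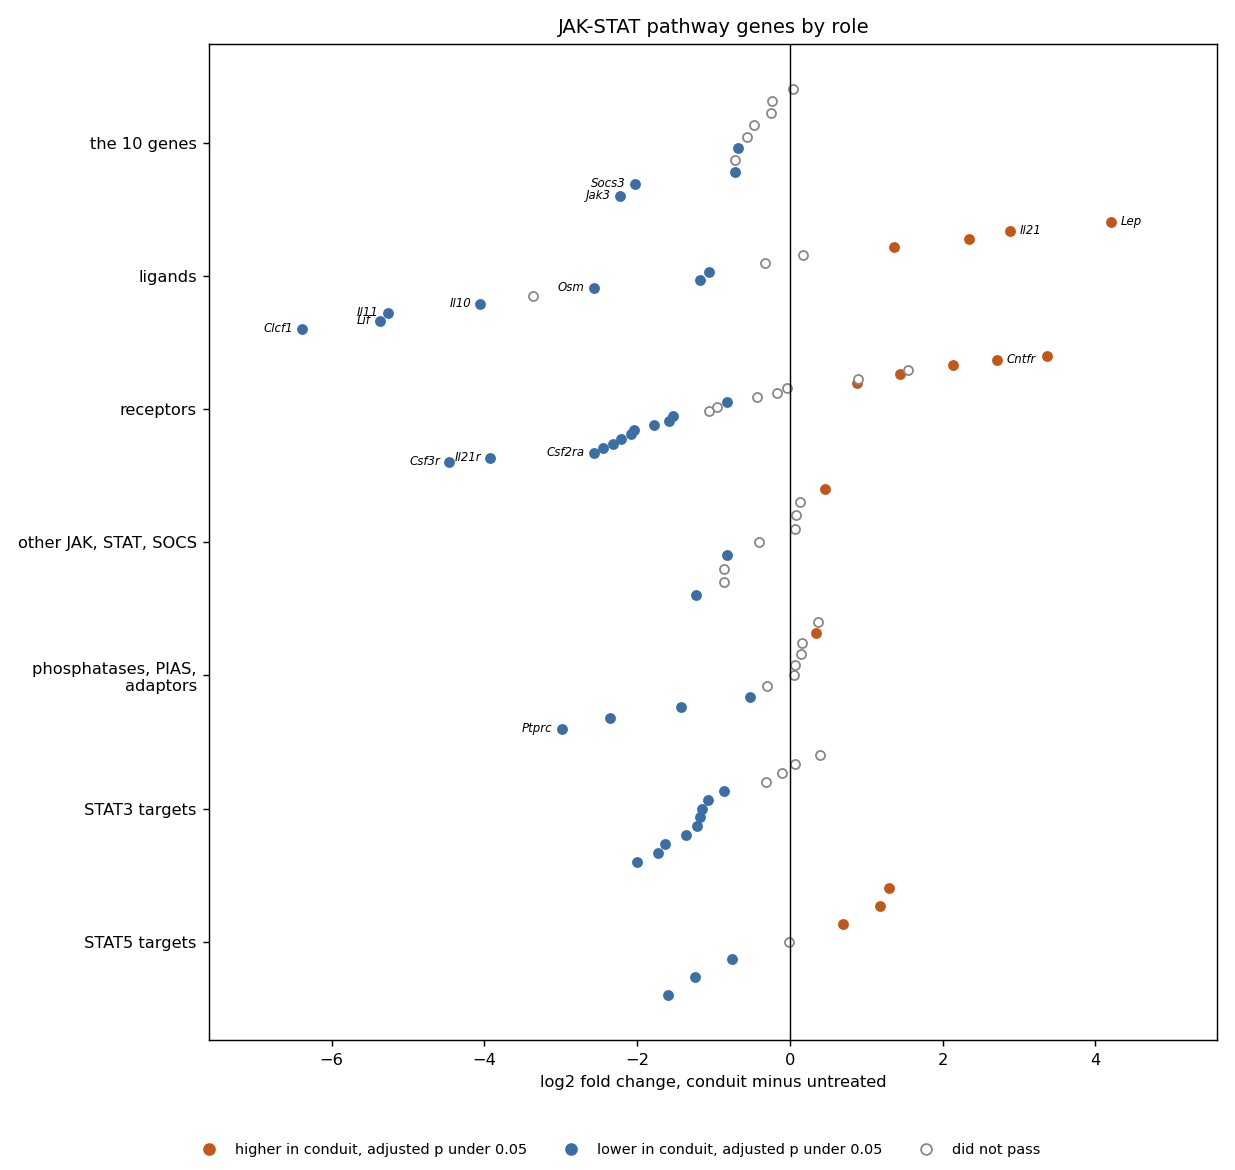
Log2 fold change, conduit minus untreated (horizontal axis), of each tested gene of the pathway in 7 rows by role; filled orange points rose, filled blue points fell and open points did not pass, with some genes of large change named. The ligand and receptor rows hold points on both sides of 0, while the 9 called STAT3 targets all lie to the left.

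Genes whose profile over the 6 libraries was most like that of a member were found by Euclidean distance of centred log2 CPM, a description in which the group difference weighs most. For Socs3 they included Tstd3 and Nhp2 (distances 0.290 and 0.406). For Stat3 they were Snd1, Apeh and Rpa1 (0.0954, 0.110 and 0.115), and for Jak3 they were Tgif1, Ctsb and Dnajc22 (0.279, 0.291 and 0.301). Tstd3 was at 9.84, 6.84 and 5.63 CPM in conduit libraries, against 28.5, 26.0 and 25.5 CPM in untreated libraries, with the lowest value in conduit replicate 3 as for Socs3. Ctsb, the lysosomal protease cathepsin B, was at 558, 752 and 704 CPM in conduit libraries, against 3232, 2649 and 2793 CPM in untreated libraries, with the lowest value in conduit replicate 1 and the highest in untreated replicate 1 as for Jak3.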

How the data were processed

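Messenger RNA of 6 rat sciatic nerve libraries was analysed, 3 conduit and 3 untreated, grouped by their labels. Raw counts by gene came in 1 table as the authors deposited it, and FPKM values in 1 file per library, which follow from the counts by gene length and library total. Tools named in the submitters' processing notes are DESeq2, HTSeq, HISAT2 and fastp, and the build named there is mRatBN7.2. Versions and roles are not given in the sources used here. Genes go by the symbols of the table, and the muscle marker Mylpf was found as Myl11 through RefSeq.

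Counts went into a two-sided quasi-likelihood test (edgeR 4.0.16, R 4.3.3) after filterByExpr (minimum count 10) and TMM scaling, with group as the only term and Benjamini-Hochberg adjustment over all genes tested. Standard errors are the log2 fold change over the square root of F. The procedure was tested on simulated data. Shares and ratios of FPKM used an exact permutation test (scipy 1.17.1). The members and lists were chosen with earlier results of these data known, and the 4 ratios were added after values were seen. The text names all members, up to 3 called genes with the smallest adjusted p and the 2 most abundant of each pathway list, the 3 genes most like 1 member of each family, and, chosen after their values were seen, genes behind small counts. Some genes that this rule names are counted in their lists but not reported here. The alternatives tried were library totals, RLE scaling, DESeq2 1.42.0, no filter, 5 CPM in 3 libraries, a replicate block, limma 3.58.1 on log2(FPKM + 1) with at least 0.5 FPKM in 3 libraries, with a pseudocount of 0.1 or no filter, and each library left out.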

Additional observations from a re-analysis of the deposited data

How the results depend on the processing

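The 10 genes were refitted under 15 alternatives. Jak3, Socs3 and Stat3 were called lower in each of them and Jak1 in 13. The number of the 10 called lower was 9 with library totals, 9 with limma on log2(FPKM + 1), 10 with a pseudocount of 0.1 and 9 with unfiltered FPKM, and 3 to 5 with single libraries left out. None was called higher in any of them. These 4 fits scale by library totals, which shifts all genes. Over all genes they called 6554 (library totals) and 6263 (unfiltered FPKM) lower and 2291, 2044 (pseudocount 1), 2034 (0.1) and 2254 (unfiltered) higher. In the same order of library totals and the 3 FPKM fits, genes near 0 with TMM turned negative, namely Stat5a (-0.35, -0.31, -0.34 and -0.31), Ptpn11 (-0.23, -0.22, -0.22 and -0.22) and Cbl (-0.33, -0.29, -0.33 and -0.29). With single libraries left out, Stat5a ran from -0.03 to 0.15, Cbl from -0.03 to 0.16 and Mcl1 from -0.21 to 0.03, the share of Jak1 differed by -1.23 to 2.87 percentage points and the ratio of Socs1 to Stat3 by -0.165 to 1.06. The labels do not say whether libraries of equal replicate number belong together. Correlations of deviations were -0.0278 to 0.144 for equal numbers and -0.147 to 0.103 for unequal numbers. With a replicate block 5 of the 10 were called lower, Jak2 being added. Socs1 and Cish were not tested with the filter of 5 CPM. Socs1 and Cish had 66 to 389 counts per library.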

Other observations

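Markers of the other cell types that a nerve can hold gave the following sums. B cell markers came to 3.28 to 4.01 CPM in conduit libraries and 20.5 to 33.4 CPM in untreated libraries, with Cd79b and Ms4a1 at 0 in conduit replicate 3. Neutrophil markers came to 9.02 to 16.8 CPM in conduit and 32.3 to 77.4 CPM in untreated libraries, with Elane at 0 in conduit replicates 1 and 2. Mpo, 1 of them, went the other way and did not pass (0.70 ± 1.01). Summed endothelial markers overlapped between the groups, at 705 to 834 CPM in conduit and 707 to 978 CPM in untreated libraries. Among them Cldn5 rose (1.08 ± 0.28, edgeR adjusted p = 0.0165), Pecam1 fell (-0.93 ± 0.22, 0.0104) and 4 did not pass. Summed fibroblast and perineurial markers were 12756 to 26468 CPM in conduit and 7176 to 14227 CPM in untreated libraries, most of it from Col1a1 and Col1a2. Of these 7 markers 4 rose (Col1a1, Col1a2, Slc2a1 and Krt19), beside 24.0% of all genes tested. Pdgfra fell (-0.95 ± 0.31), and Dcn and Lum did not pass. The 8 Schwann cell markers summed to 123963 to 162110 CPM in conduit and 9980 to 21871 CPM in untreated libraries.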
